A study of Mus musculus with 4 samples.

Results

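The 86 genes described here encode the proteins of the cytosolic ribosome and a few close relatives. They are the protein-coding mouse genes whose symbol starts with Rpl or Rps followed by a digit, together with Rplp0, Rplp1, Rplp2 and Rpsa. S6 kinase genes and symbols containing -ps were left out. They make up 86 of the 43629 gene identifiers counted in each library, with 52 named for the large subunit and 34 for the small. Of these, 77 are the standard genes (46 large, 31 small). The other 9 are Rpl3l, Rpl7l1, Rpl10l, Rpl22l1, Rpl36al, Rpl39l, Rps27l and Rps27rt, which are paralogs, and Rps19bp1, which encodes a protein that binds Rps19 and is not itself part of the ribosome. All 86 passed the filter on low counts.

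Poly(A) RNA was sequenced from mouse embryonic stem cells of 129/Ola background, taken from blastocysts and grown in serum with LIF. KO1 and KO2 are 1 library each of Drosha knockout cells made by paired CRISPR/Cas9 cutting, at passage 7. DROSHA, a nuclear RNase, makes the first cut in the maturation of microRNAs. KO1 lacks its proline-rich region while KO2 lacks the region rich in arginine and serine. WT1 and WT2 are wild-type E14 cells at passages 33 and 42, and both titles mark them as re-used. Each knockout strategy is thus represented by 1 library, the 4 libraries carry 3 different passages, and the mark d5 in the knockout titles is not explained. Genotype, passage and the origin of the libraries cannot be told apart. Within a group the libraries differ in passage (wild type) or in allele (knockout), so the spread behind each p-value includes those differences. Neither wild-type passage and neither knockout allele has a second library.

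A ribosome is built from a small subunit, which reads the messenger RNA, and a large subunit, which joins the amino acids. Each protein is needed in about 1 copy per ribosome, except those of the lateral stalk, so the genes are expressed at high and coordinated levels in dividing cells. Most of their messengers begin with a C followed by a run of pyrimidines, the 5′ terminal oligopyrimidine (TOP) motif, through which mTOR signalling and LARP1 control their translation. Their spliced, short and abundant messengers have been copied back into the genome many times, so that mouse carries a large number of processed ribosomal protein pseudogenes.

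The library totals ran from 29264632 to 42322129 counts. Levels are given as CPM, the count scaled to a common library size with TMM factors, and 1 count was worth 0.0236 to 0.0342 CPM before that scaling. The targeted gene, Drosha, stood at 158 CPM in both knockout libraries and at 364 and 357 CPM in WT1 and WT2. The stem cell markers were present in all 4 libraries, with a summed level of 6389 and 6490 CPM in KO1 and KO2 and of 5637 and 6843 CPM in WT1 and WT2. None of these 8 markers passed the edgeR test (2 at an unadjusted p under 0.05, 0 in DESeq2). Of 11 endoderm markers tested 3 fell in the knockouts in edgeR (10 at an unadjusted p under 0.05, 9 lower in DESeq2). In all 11 both knockouts lay below both wild types, with a median log2 fold change of -2.09 and a sum of 585 and 578 CPM against 977 and 1220 CPM. Fibroblast and feeder markers summed to 1631 and 1611 CPM against 1090 and 1777 CPM, most of it Fn1, with 0 of 8 tested passing edgeR's test (4 at an unadjusted p under 0.05, 3 higher in DESeq2). All 8 were fitted above 0, with a median log2 fold change of 0.88, and in 6 both knockouts lay above both wild types. The matrix genes Col3a1, Dcn, Lum and Postn were at or below 1.65 CPM in every library, and Dcn, Lum and Postn were at 0 in both wild types. In bulk RNA, fewer cells of a type and less RNA per cell cannot be told apart. The part of these cell types in the results below was not tested. The wild-type libraries differed from each other far more than the knockout libraries did, with a chi-square per degree of freedom of 167 against 2.26.

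Sequences near the transcription start are shown first because they carry the shared signal of the family. RefSeq starts on GRCm38.p6 were found for 66 of the 86 genes. Each line gives 10 bases before the annotated start and 15 from it, with the run of pyrimidines that begins at the start in capitals.
Rps10 (chr17:27635230-27635254, minus strand): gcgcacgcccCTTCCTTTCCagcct
Rps21 (chr2:180257369-180257393, plus strand): aggacccgccCTCCTgcccaatagt
Rplp2 (chr7:141447641-141447665, plus strand): cagcgtcttcCTTTCgccgccggac
Rpl14 (chr9:120571507-120571531, plus strand): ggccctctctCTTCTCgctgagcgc
Rps6 (chr4:86857353-86857377, minus strand): gaagtcgggcCTCTTTTTCgtgacg
Rpl15 (chr14:18270972-18270996, minus strand): agaaagccttCTTCCTTTCCTCTgg
Rps16 (chr7:28350679-28350703, plus strand): ttctgtcgtgacgtagcactcaatg
The first 4 belong to genes that passed the test of knockout against wild type. Rps6 and Rpl15 carry runs of 9 and 13 letters and did not pass, and Rps16 passed with no run at its annotated start.

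A C at the start followed by at least 4 pyrimidines, on the strand of the gene, was found for 14 of the 66 genes (21.2%), 7 of 40 large subunit genes and 7 of 26 small subunit genes. The corresponding share among 17492 protein-coding genes of the same table was 2.67%. When the start was allowed to move by 5 bases, the shares were 45.5% and 21.5%. Of the 14 genes with such a start, 4 passed the test and the median log2 fold change was 0.37. Of the 52 without one at the annotated start, 4 passed and the median was 0.11. This order depended on the processing described further on. With trends in base composition and length removed, the medians were 0.10 with such a start and 0.20 without. With named pseudogenes summed in they were 0.26 and 0.34, and with copies by sequence summed in 0.52 and 0.43. A pyrimidine run is a match of letters, and annotated starts can differ from those used in these cells.

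The ribosomal protein genes took a larger share of the counts in the knockout libraries. The share was 3.63% in KO1 and 3.69% in KO2, against 2.33% in WT1 and 2.26% in WT2. Both knockout values lay above both wild-type values, a difference of 1.37 percentage points or 1.60-fold. With 2 libraries in each group an exact two-sided permutation test cannot give a p below 0.333, which is the value found here and for the subunit shares and ratio that follow.

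Both subunits had larger shares. Large subunit genes took 2.00% and 2.03% of the counts in the knockouts and 1.33% and 1.30% in the wild types, 1.53-fold. Small subunit genes took 1.63% and 1.67% against 1.00% and 0.958%, 1.68-fold. The ratio of large to small subunit counts was therefore lower in the knockouts, at 1.23 and 1.22 against 1.33 and 1.36. The groups did not overlap, and the difference of -0.12 was larger than the SD within either group (0.0072 in the knockouts and 0.021 in the wild types, n = 2 each). With pseudogene and other copies of each gene summed in, as described further on, the ratio was 1.497 and 1.490 against 1.580 and 1.541, so the difference shrank to -0.07 but the groups remained apart.

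**Figure D1:**
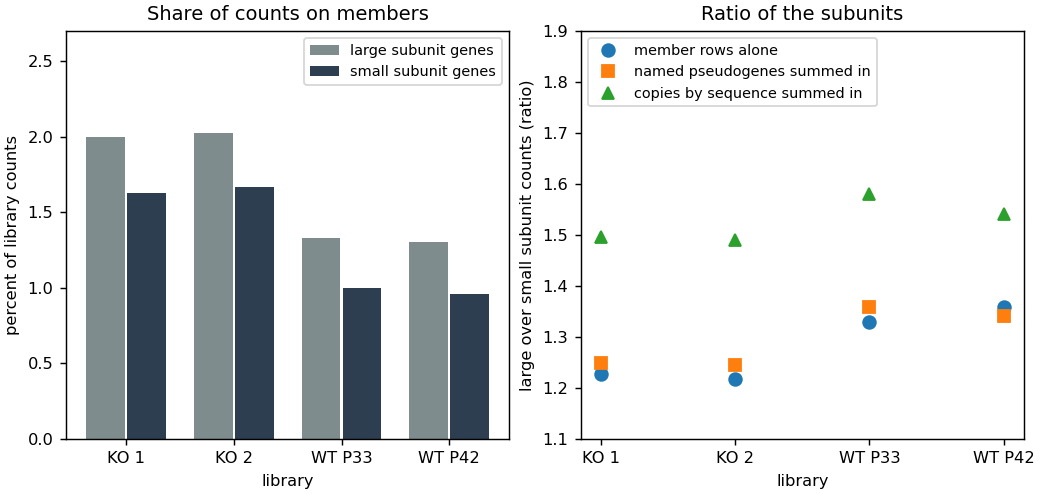
Left, percent of each library's counts on large and small subunit genes, with bars from 0. Right, the ratio of large to small subunit counts in each library for the gene rows alone and with 2 ways of adding copies (the axis does not start at 0). The knockout bars are higher for both subunits, and the knockout ratios lie below the wild-type ratios in all 3 versions.

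The counts were unevenly spread over the family. The 10 most counted genes held 46.7% and 46.6% of the family's counts in KO1 and KO2, and 51.0% and 54.7% in WT1 and WT2. Rpl4, which lines the tunnel through which the new protein leaves, was the most counted, with 9.93%, 9.91%, 13.2% and 13.2% in KO1, KO2, WT1 and WT2. Rpl8, which lies close to the catalytic centre, held 8.64% and 8.38% in the knockouts, 5.91% in WT1 and 2.36% in WT2.

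Tested gene by gene with edgeR's quasi-likelihood test and Benjamini-Hochberg adjustment over all 17022 genes, 9 of the 86 rose in the knockouts, none fell, and 77 did not pass. Over all genes tested, 3.51% were called higher and 1.94% lower. The members' share called higher was 10.5%. At an unadjusted p under 0.05 there were 39 higher and 6 lower. Over all 17022 genes 6320 had such a p in this fit, which is the background for like counts of the other lists. DESeq2 called 30 higher and 1 lower (Rpl5), where the backgrounds were 12.9% and 11.1%. By subunit, 4 of 52 large subunit genes were called (Rpl14, Rpl18, Rplp0 and Rplp2) and 5 of 34 small subunit genes, among them Rps10, Rps16, Rps21 and Rps26.

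All 9 calls sat next to the threshold. Their adjusted p ran from 0.0482 to 0.0499, and 0.0482 was also the smallest value of any gene in the table. Another 8 genes lay between 0.05 and 0.055, among them Rps15, Rpl36, Rpsa, Rpl6, Rplp1 and Rps18. Called and uncalled genes thus had nearly the same adjusted p. The 9 calls did not hold with either knockout library left out. Their log2 fold changes then ran from 1.05 to 2.52 without KO1 and from 1.09 to 2.37 without KO2. With KO1 left out, no gene of the family passed (22 at an unadjusted p under 0.05), and with KO2 left out 2 passed, where the shares over all genes were 0% and 0.125%. With WT1 or with WT2 left out 77 passed, in fits whose spread comes from the close knockout pair alone and which called 77.7% and 68% of all genes.

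Over the family the median log2 fold change, knockout over wild type, was 0.25, against -0.02 over all genes tested. It was 0.10 for large and 0.53 for small subunit genes, and 54 of the 86 were fitted above 0. In 44 genes (51.2%) both knockout libraries lay above both wild types, and in 15 (17.4%) both lay below, while 27 overlapped. The same counts over all genes were 36.5% and 34.8%. By subunit, 26 large and 18 small subunit genes lay above, and 11 large and 4 small lay below.

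**Figure D2:**
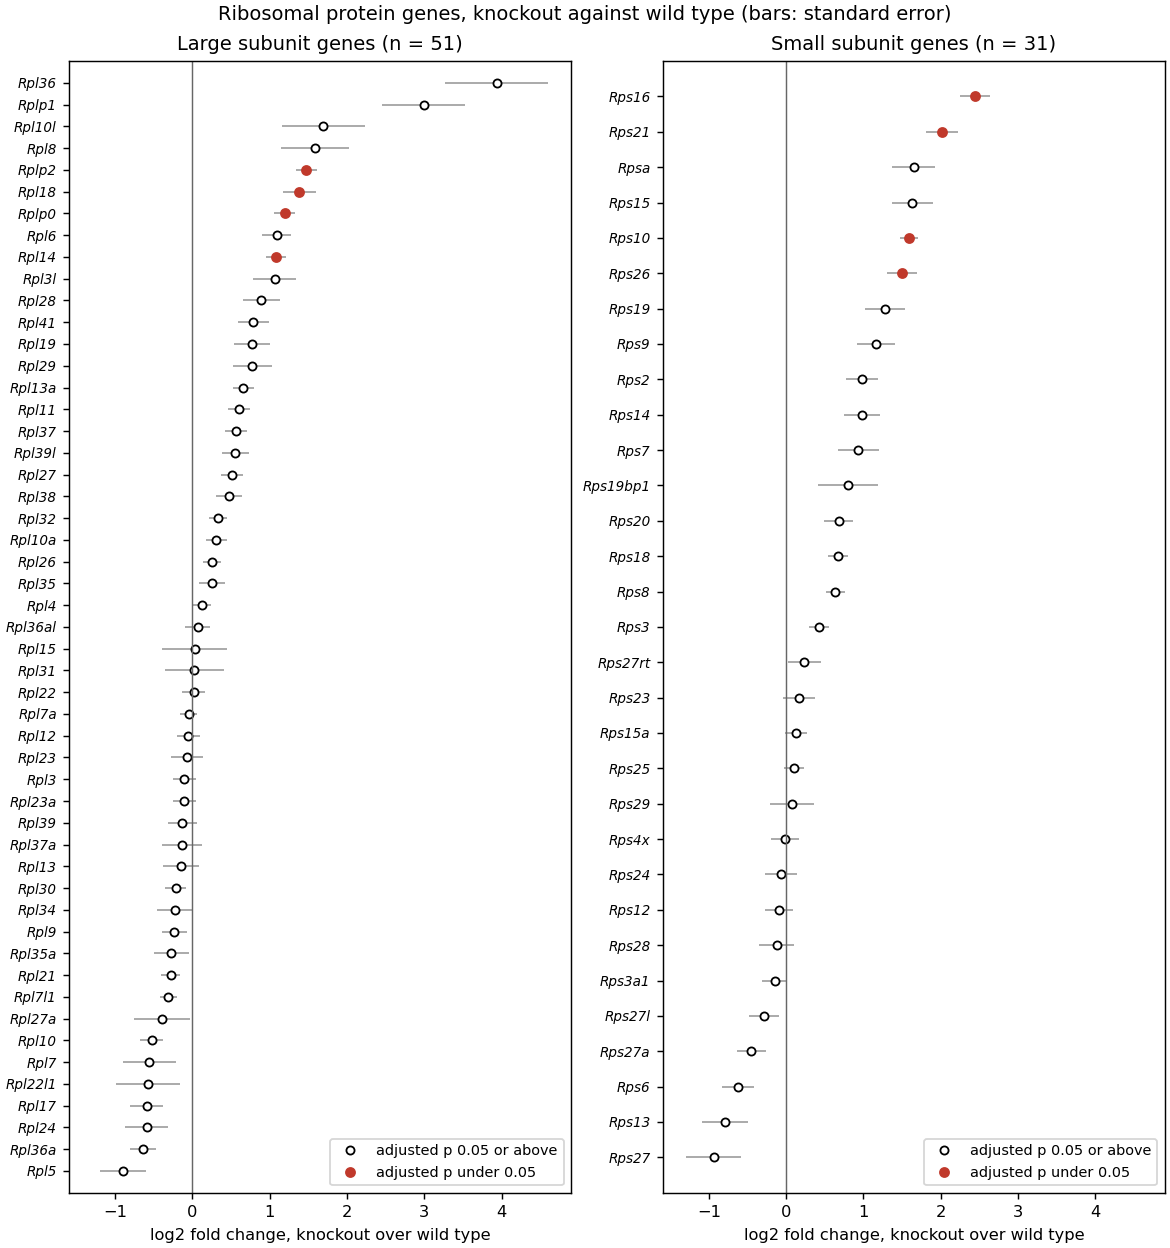
Log2 fold change of 82 of the 86 genes, knockout over wild type, with its standard error, for the large (left) and small (right) subunit. Filled points passed an adjusted p of 0.05. The values run from 3.94 (Rpl36) to -0.94 (Rps27), and the filled points are not the highest of the large subunit panel.

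The lateral stalk, which recruits translation factors to the large subunit, held 2 of the 4 called large subunit genes, and the median log2 fold change of its 4 genes was 1.34. Rplp0, the base that carries the acidic pairs, stood at 933 and 918 CPM in KO1 and KO2 and at 433 and 373 CPM in WT1 and WT2. It rose by 1.20 ± 0.14 (SE) on the log2 scale, with edgeR's adjusted p at 0.0482. Rplp2, one of the acidic proteins, stood at 344 and 370 CPM against 136 and 121 CPM and also rose (log2 fold change 1.48 ± 0.13). In both genes the libraries of a group were close together and the groups were far apart.

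Rplp1, the partner of Rplp2 in the acidic pair, had a larger difference but a wide wild-type spread. It stood at 1191 and 1220 CPM in the knockouts, 222 CPM in WT1 and 81.0 CPM in WT2. Its log2 fold change was 2.99 ± 0.54 (adjusted p = 0.0539, edgeR). The ratio of Rplp1 to Rplp0 counts was 1.28 and 1.33 in the knockouts, 0.511 in WT1 and 0.217 in WT2. Rpl12, which sits at the foot of the stalk, overlapped between the groups at 77.0 and 76.4 CPM against 71.4 and 87.3 CPM. So 2 of the 4 stalk genes passed the test, and the 4 did not move by the same amount.

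Rpl5 and Rpl11 bind 5S ribosomal RNA and, when free of ribosomes, the p53 regulator MDM2. Rpl5 stood at 58.7 and 59.3 CPM in KO1 and KO2 and at 79.8 and 139 CPM in the wild types, the lowest log2 fold change of the large subunit at -0.89 ± 0.30 (adjusted p = 0.115 in edgeR). Rpl11 lay on the other side, at 41.5 and 41.2 CPM against 28.8 and 25.4 CPM (log2 fold change 0.61 ± 0.14, adjusted p = 0.0676 in edgeR). Neither passed in edgeR, although both had an unadjusted p under 0.05. The log2 fold change of Rpl5 was -0.25 with its copies, described further on, summed in, -0.35 with trends in base composition and length removed, and -0.43 without WT2. In DESeq2, Rpl5 was the only one of the 86 genes called lower.

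The other called large subunit genes were Rpl14 and Rpl18. Rpl14 stood at 414 and 410 CPM in the knockouts against 206 and 182 CPM, 2.12-fold (log2 fold change 1.08 ± 0.13). Rpl18 stood at 400 and 397 CPM against 180 and 125 CPM, with a log2 fold change of 1.39 ± 0.21. Rpl36, a protein found only in eukaryotic ribosomes, had the highest fold of all 86 genes but did not pass. Its level was 185 and 188 CPM in the knockouts, 18.8 CPM in WT1 and 5.44 CPM in WT2 (log2 fold change 3.94 ± 0.66, adjusted p = 0.0510 in edgeR). Even the higher wild-type library was far below both knockouts, and WT2 was lower than WT1 by 1.78 on the log2 scale, the largest gap between the wild types in the family.

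At the low end of the large subunit, Rpl36a stood at 19.1 and 20.9 CPM against 28.1 and 34.1 CPM (log2 fold change -0.64). Rpl24, a surface protein that bridges to the small subunit, had a log2 fold change of -0.59, at 2.89 and 2.93 CPM against 3.63 and 5.14 CPM. For both, the groups did not overlap but the test was not passed, and Rpl24 was fitted at 0.18 once its copies, described further on, were summed in. Of the 8 genes whose proteins surround the exit of the peptide tunnel, 0 passed (2 at an unadjusted p under 0.05, 1 higher in DESeq2) and their median was 0.02. That median was 0.26 with named pseudogenes summed in and 0.34 with copies by sequence summed in.

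The head of the small subunit, which swivels as transfer RNAs move, held 3 of the 5 called small subunit genes among its 13 listed ones, and its median was 0.68. Rps16, whose tail reaches the transfer RNA, stood at 74.6 and 82.9 CPM in KO1 and KO2 against 12.6 and 16.4 CPM. It rose by 2.44 ± 0.19 on the log2 scale, the highest of the small subunit. Rps10 stood at 137 and 134 CPM against 44.0 and 45.8 CPM, a log2 fold change of 1.60 ± 0.12 with both pairs close together.

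Outside the head, Rps21 and Rps26 passed. Rps21, a small protein of the body, stood at 346 and 349 CPM in KO1 and KO2 and at 99.8 and 71.7 CPM in the wild types, 4.05-fold. Rps26, which lines the exit of the messenger channel, stood at 455 and 470 CPM against 189 and 139 CPM, 2.82-fold. Rpsa, also known as the laminin receptor, had a higher fold than Rps26 but a wider wild-type pair, at 1114 and 1082 CPM against 437 and 264 CPM (log2 fold change 1.65 ± 0.28, adjusted p = 0.0511 in edgeR).

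The lowest values of the small subunit belonged to Rps27, Rps13 and Rps6. Rps27, a zinc-finger protein, stood at 3.63 and 3.16 CPM against 4.68 and 8.30 CPM (log2 fold change -0.94 ± 0.36). Rps13 had a log2 fold change of -0.79, and Rps6, the substrate of the S6 kinases, one of -0.63. In all 3 the knockouts lay below both wild types without passing the test, and all 3 are counted at a low level for a ribosomal protein gene. With copies outside the family, described further on, summed in, Rps13 was fitted at -0.15 and Rps6 at -0.012. That sum leaves out Rps27rt, a member of the family with the same 252 coding bases as Rps27. Rps27rt was counted far above Rps27, at 293 and 332 CPM in the knockouts against 220 and 310 CPM in the wild types. Reads from the shared bases cannot be divided between the pair, so the value of Rps27 cannot be read as a fall of that gene. Of 16 genes of the family that are mutated in Diamond-Blackfan anaemia, an inherited failure of red cell formation, 2 passed (Rps10 and Rps26) and the median was 0.17.

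**Figure D3:**
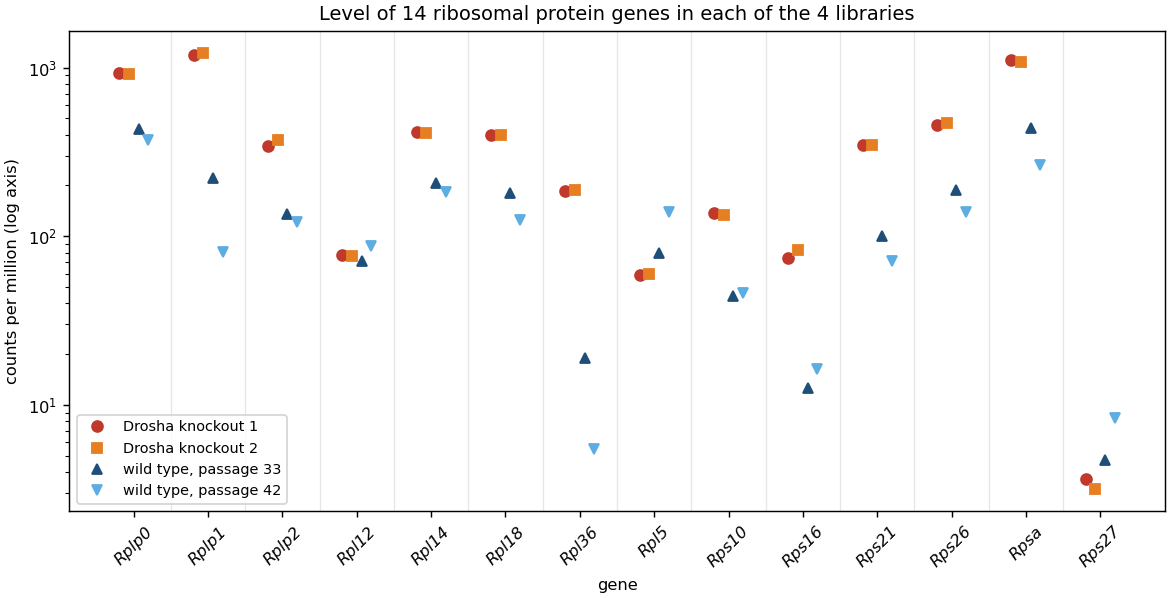
Level in CPM, on a log axis, of 14 genes in each of the 4 libraries. The knockout pairs nearly coincide, while WT1 and WT2 are far apart for Rplp1, Rpl36 and Rpl5, with WT2 lower in the first 2 and higher in Rpl5.

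None of the 8 paralogs nor Rps19bp1 passed in edgeR (4 at an unadjusted p under 0.05, 1 in DESeq2). Rpl10l, a retrogene of Rpl10 best known from testis, was the highest at 115 and 120 CPM in the knockouts, 54.1 CPM in WT1 and 18.7 CPM in WT2 (log2 fold change 1.69 ± 0.54). Its source gene Rpl10 lay the other way, at 67.6 and 64.0 CPM against 85.5 and 104 CPM (log2 fold change -0.53 ± 0.15). Their coding sequences are 84.7% identical, and the 30 bases with differences shown here, coding bases 118 to 147, have the differing bases in capitals.
Rpl10: aaAgcAaaAgtTgatgaAttCccactTtgT
Rpl10l: aaGgcGaaGgtGgatgaGttTccactCtgC
Of the 50-base windows of Rpl10l, 7.60% occur in transcripts of other genes.

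The remaining paralogs had smaller differences. Rpl3l, a striated muscle form of Rpl3, stood at 2.72 and 2.25 CPM against 1.152 and 1.222 CPM (log2 fold change 1.06), the lowest level per length of all 86 genes. Rpl39l, a form known from male germ cells, had a log2 fold change of 0.56 and Rps19bp1 one of 0.80. Rpl22l1, Rpl7l1 and Rps27l were fitted at -0.57, -0.31 and -0.29, and Rpl36al and Rps27rt at 0.07 and 0.24. Rpl22l1 and Rps27l were fitted above 0 with trends in base composition and length removed. Rpl22l1 stood at 87.4 and 95.9 CPM in the knockouts, 83.9 CPM in WT1 and 188 CPM in WT2, and without WT2 its log2 fold change was 0.14.

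The level per length, in CPM per kilobase of transcript, spread from 1.34 to 2322 over the 86 genes. Averaged over the 4 libraries, the standard large subunit genes ran from 4.92 (Rpl29) and 5.39 (Rpl24) up to 2156 (Rpl4) and 2322 (Rpl8), with a median of 160.5. The standard small subunit genes ran from 14.3 (Rps27) and 19.7 (Rps29) upwards, with Rps4x at 1345 and a median of 447.5. Over the 86 genes the log2 of this level and the share of a transcript repeated elsewhere were only weakly related (Spearman rho = -0.26, Pearson r = -0.21). The 7 standard genes with under 20% of their 50-base windows in transcripts of other annotated genes had a median of 803 CPM per kilobase, and the 17 with at least 80% one of 100.5 CPM per kilobase.

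The repeated part of each transcript was large. A median of 54.5% of the 50-base windows of a member also occurred in transcripts of another annotated gene, 50 of the 86 genes shared at least 50% of their windows, and 4 shared none, among them Rps19bp1, Rpl39l and Rpl3l. Reads from such windows match several places. How the counting treated them is not given in the sources used here, so the level of a gene with many copies is uncertain. Genes on the same strand also cover 47.0% of the exon bases of Rpl24, 35.4% of Rpl13a, 24.5% of Rpl36al and 20.6% of Rps10, and genes on the other strand cover 66.2% of those of Rpl35, 59.7% of Rpl23a, 25.3% of Rpl31, 24.8% of Rps25, 24.3% of Rpl5 and 20.4% of Rpl30. The 12 genes with under 20% of shared windows had a median log2 fold change of 0.62 with 1 called, and the 74 others one of 0.15 with 8 called.

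Of the 86 genes, 64 had copies with at least 20% of their windows, and the counts of each were therefore also summed with those of its copies. Rps16 shows why. Its pseudogene Rps16-ps2, on chromosome 5, is identical to it over all 438 coding bases, of which the first 30 are shown.
Rps16: atgccgtccaagggtccgctgcagtccgtg
Rps16-ps2: atgccgtccaagggtccgctgcagtccgtg
Rps16-ps2 was counted at 724 and 714 CPM in KO1 and KO2 and at 396 and 405 CPM in the wild types, far above Rps16 itself. The copies held 90.7% and 89.6% of the summed counts in the knockouts and 96.9% and 96.1% in the wild types. The sum stood at 800 and 798 CPM against 410 and 423 CPM, a log2 fold change of 0.94 in place of 2.44, and it still passed the test.

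For Rpl14 the sum ended the call. Its copy Rpl14-ps1 stood at 648 and 703 CPM in KO1 and KO2 and at 709 and 821 CPM in the wild types, and was thus slightly on the other side. The pair stood at 1062 and 1113 CPM against 916 and 1004 CPM, with a log2 fold change of 0.18 (adjusted p = 0.335 in edgeR). Rpl36 changed little, from 3.94 to 3.65. One of its copies, Rpl36-ps12 on chromosome 6, differs from it at 3 of 315 coding bases. Of these, 1 lies in the first 30 bases, in capitals here.
Rpl36: atggctctgcgctaccccatggccgtGggc
Rpl36-ps12: atggctctgcgctaccccatggccgtAggc
This copy stood at 73.7 and 66.9 CPM in the knockouts, 8.87 CPM in WT1 and 3.36 CPM in WT2, and it rose by 3.52 ± 0.52 on the log2 scale (adjusted p = 0.0482 in edgeR).

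Other genes gained from their copies. Rps29 was counted at 8.10 and 7.66 CPM against 5.86 and 9.11 CPM, while its copy Gm14303 stood at 399 and 404 CPM against 157 and 110 CPM. The log2 fold change of Rps29 went from 0.08 to 1.54 with this copy, and it passed the test. Rps12 went from -0.09 to 0.96 and also passed. Rplp2 went from 1.48 to 1.82 with Wdr89, a protein-coding gene whose transcripts hold 65.1% of its windows, and Rps10 from 1.60 to 1.29. With copies summed in, 9 of the 86 genes were again called higher in edgeR and 0 lower (backgrounds 3.16% and 1.66%), of which 6 (Rplp0, Rplp2, Rps10, Rps16, Rps21 and Rps26) were called either way.

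Across the 64 genes with copies the median log2 fold change was 0.15 for the gene rows and 0.49 for the sums. The sum lay above the gene's own value by over 0.5 in 16 genes and below it by over 0.5 in 4. It was above 0 in 50 of the 64, against 38 for the rows alone, and 13 genes went from below to above 0 while 1 went the other way. The largest shifts were -1.5 for Rps16 and 1.46 for Rps29. With the sums, the median over all 86 genes was 0.45, 0.41 for large and 0.72 for small subunit genes.

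**Figure D4:**
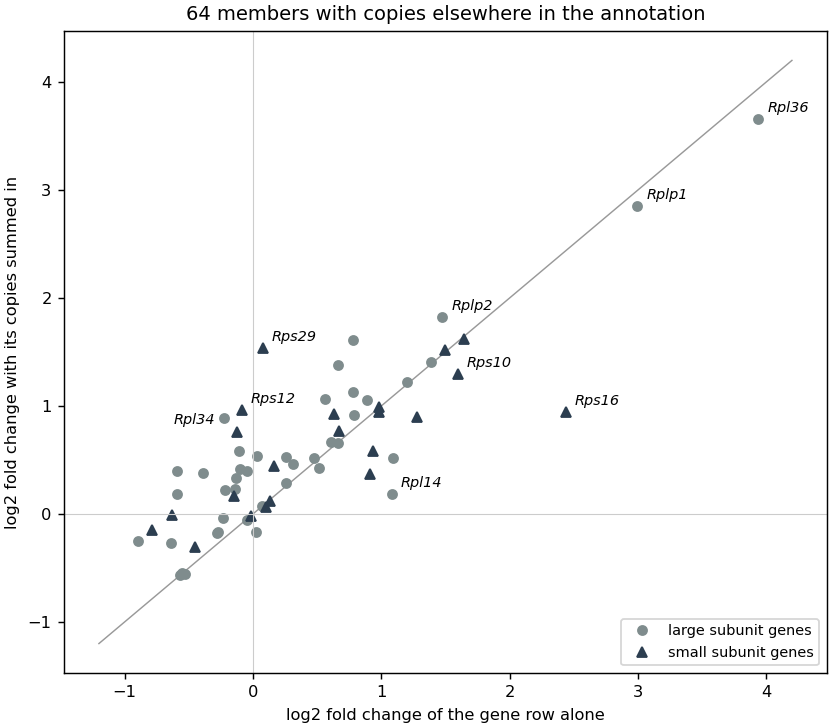
Log2 fold change, knockout over wild type, of the gene row alone (horizontal) and with its copies summed in (vertical) for the 64 genes with copies; the line marks equal values. Rps16 and Rpl14 lie far below the line, Rps29, Rps12 and Rpl34 far above it, and Rplp1 and Rpl36 near it.

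Retrogenes share coding sequence with other members. Rps4l, whose coding sequence is 79.6% identical to that of Rps4x, stood at 387 and 367 CPM in the knockouts against 99.3 and 47.5 CPM (log2 fold change 2.36 ± 0.40, adjusted p = 0.0508 in edgeR). Rps4x, on the X chromosome, overlapped between the groups at 1278 and 1331 CPM against 1128 and 1509 CPM. Rps27 and the retrogene Rps27rt have the same 252 coding bases, and Rps27rt was counted at 293 and 332 CPM against 220 and 310 CPM, far above Rps27. Reads from the shared coding bases cannot be assigned to 1 of this pair.

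The differences varied with the base composition of the transcripts. Across the 86 genes the log2 fold change and the GC content of the transcript had a Spearman rho of 0.59 (Pearson r = 0.58), and across 16903 genes a rho of 0.66. The ratio of the wild-type libraries WT2 over WT1, which contains no knockout, had a rho of -0.59 with GC content over the same 86 genes. These are descriptions across genes, which share the 4 libraries and are not independent replicates. Of the 43 genes above the family's median GC, 7 were called and the median log2 fold change was 0.78, against 2 called and a median of -0.09 in the 43 others.

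With smooth trends in GC content and transcript length removed from each library, the rho over the family was 0.06 and the median log2 fold change was 0.16, with 0.03 for large and 0.36 for small subunit genes. No gene of the whole table passed edgeR's test then, and 43 of the 86 had an unadjusted p under 0.05. All 9 called genes were still fitted above 0. Rps16 kept 2.44, Rps21 was at 1.84, Rps26 at 1.63, Rplp0 at 0.96, Rplp2 at 0.90 and Rps10 at 0.88, while Rpl18 went from 1.39 to 0.41.

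**Figure D5:**
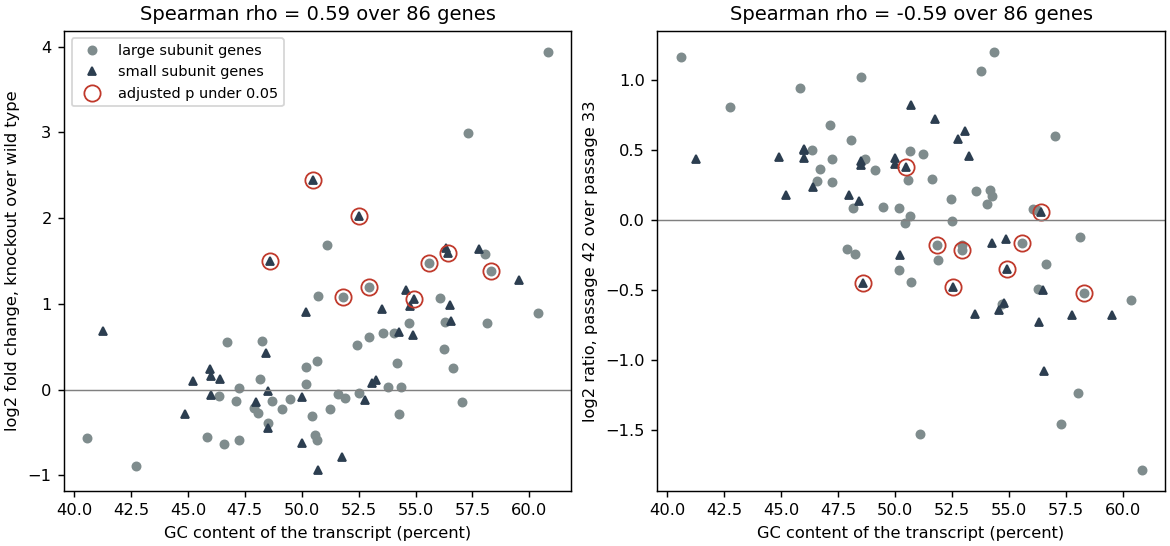
Log2 fold change of knockout over wild type (left) and log2 ratio of the wild-type libraries, passage 42 over passage 33 (right), against the GC content of the transcript in percent, for the 86 genes, with called genes circled. The left cloud climbs with GC content (rho = 0.59) and the right one descends (rho = -0.59).

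The wild-type pair differed by more than 0.5 on the log2 scale in 29 of the 86 genes, with ratios of WT2 over WT1 from -1.78 (Rpl36) to 1.20 (Rpl15). The knockout pair differed by that much in 0 of the 86, and by 0.267 at most. Of the 3 highest folds of each subunit, 5 of 6 belonged to genes lower in WT2 than in WT1, with Rps16 the exception. Rpl8 stood at 2978 and 2952 CPM in the knockouts, 1385 CPM in WT1 and 588 CPM in WT2, and its log2 fold change was 1.11 against WT1 alone and 2.33 against WT2 alone. Rpl8 lies on chromosome 15 with Rpl3, Rpl30, Rpl37 and Rps19bp1. The median ratio of WT2 over WT1 was -0.61 over the 666 tested genes of this chromosome and -0.01 over all genes. The part of that difference in these 5 genes was not tested.

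Against WT1 alone the median of the family was 0.42, and against WT2 alone it was 0.21. The small subunit median was 0.51 and 0.42, and the large subunit one 0.28 and 0.14, so the small subunit genes had the higher median against either wild-type library.

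Of the 86 genes, 30 hold 58 annotated small nucleolar RNAs, which guide the modification of ribosomal RNA, within their bounds. The median log2 fold change of these 30 was -0.05 with 2 called, and that of the other 56 was 0.39 with 7 called. The median GC content was 50.6% and 52.5%. The gap between these medians depended on the processing. With named pseudogenes summed in they were 0.37 with such RNAs and 0.47 without, and with copies by sequence summed in 0.40 and 0.53. With trends in base composition and length removed they were 0.04 and 0.27. The 7 non-ribosomal hosts of such RNAs that were tested were all fitted below 0, with 0 called in edgeR (1 at an unadjusted p under 0.05, 1 lower in DESeq2). The median of these 7 hosts was -0.44, but 0.015 against WT1 alone and -0.018 with trends in base composition and length removed. Gas5 had the smallest p among them, at 163 and 172 CPM in the knockouts, 228 CPM in WT1 and 500 CPM in WT2.

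3 ribosomal proteins have other symbols and were counted apart. Fau stood at 18.3 and 18.4 CPM against 9.74 and 8.72 CPM (log2 fold change 0.99 ± 0.16, adjusted p = 0.0505 in edgeR). Rack1, a scaffold on the small subunit's head, had a log2 fold change of 0.72. None of the 3 passed in edgeR, all 3 had an unadjusted p under 0.05, and DESeq2 called 2 of them. Rps27a, which is made as a fusion with ubiquitin, lay the other way at -0.45.

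Genes that work with the ribosome or build it had calls in both directions. The background over all genes tested was 3.51% higher and 1.94% lower in edgeR, and 12.9% and 11.1% in DESeq2. Of 15 translation factors known for a TOP start, 2 rose and 0 fell in edgeR. They were Tpt1, at 159 and 147 CPM against 51.2 and 68.1 CPM, and Eef2, the elongation factor that moves the ribosome along, at 4017 and 3950 CPM against 1948 and 1419 CPM. With the GC and length trends removed, Tpt1 went from a log2 fold change of 1.36 to 1.09 and Eef2 from 1.24 to 0.53. The median of the 15 was 0.02. Of 36 ribosome biogenesis factors, Nhp2 rose (log2 fold change 0.80), and Ddx21 and Noc3l fell (-1.13 and -1.01). The median of the 36 was -0.15 (16 at an unadjusted p under 0.05; 3 higher and 8 lower in DESeq2). Both knockouts lay below both wild types in 52.8% of them and above in 36.1%, against 34.8% and 36.5% of all genes. Neither the 14 RNA polymerase I genes nor the 8 chaperones of ribosomal proteins had a call in edgeR, with 3 of each at an unadjusted p under 0.05 and 3 and 2 called by DESeq2. Taf1d (-0.73) and Pdcd2l (0.70) had the smallest p of these lists, whose medians were -0.27 and -0.41.

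Among 18 genes of mTOR signalling and TOP control 1 rose, Eif4ebp1, the translation repressor that mTOR inactivates, at 444 and 417 CPM against 194 and 173 CPM. The median of the 18 was -0.14 (1 higher and 1 lower in DESeq2). Among 7 transcription factors known to act on ribosomal genes 1 rose, Mycn, at 155 and 147 CPM against 76.3 and 60.3 CPM. The median of the 7 was -0.52, with 5 fitted below 0 (1 higher and 2 lower in DESeq2). That median was -0.16 with the GC and length trends removed. Of 76 mitochondrial ribosomal protein genes 7 rose and none fell, with a median of 0.06 (26 at an unadjusted p under 0.05; 15 higher and 4 lower in DESeq2). Mrps12 had the highest fold of these, with a log2 fold change of 1.82 that was 0.74 with the GC and length trends removed. Mrpl4 and Mrpl34 went from 1.26 and 1.12 to 0.06 and 0.12. The cytosolic set had 9 of 86 called and a median of 0.25. For the lists of this paragraph too, the background was 3.51% higher and 1.94% lower in edgeR, and 12.9% and 11.1% in DESeq2.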

How the data were processed

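Values were the raw read counts per Ensembl gene that the authors deposited for 2 knockout and 2 wild-type libraries, with no normalisation. Reads were aligned with STAR 2.4.2a to mm10 and counted with featureCounts 1.4.5-p1, per the submitters' processing notes. The protocol was reverse-stranded, per the labels. The annotation release is not given in the sources used here, nor are the counting options. Symbols were found for 42462 identifiers (97.3%), and biotypes, transcripts, GC content and lengths came from GENCODE M21, with starts from RefSeq (GRCm38.p6).

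The test was edgeR's quasi-likelihood fit (edgeR 4.0.16, R 4.3.3; TMM, minimum count 10, minimum total 15, group alone, Benjamini-Hochberg adjustment over all genes, threshold 0.05), with DESeq2 1.42.0 as an alternative. TMM factors were 1.055 and 1.049 in KO1 and KO2 and 0.995 and 0.908 in WT1 and WT2. Log2 ratios of single libraries used a prior count of 2. GC and length trends were lowess curves (span 0.3) removed as offsets. Depth limits genes below about 1 CPM. Intervals were not computed, and the counts have no molecular identifiers. Each edgeR standard error was the size of the log2 fold change divided by the square root of the test's F statistic. Copies were genes outside the family that held at least 20% of a member's 50-base windows. For each member, 1 coding transcript was used. The edgeR fit was tested on simulated data.

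The genes named were all called members, the 3 highest and 3 lowest folds and the 2 highest and 2 lowest levels per length of each subunit, the paralogs, the stalk and 5S genes, and the called genes of each other list (up to 3 each way) or else the one with the smallest p. Genes named for their copies, their place on chromosome 15 or the spread of the wild types, with Rpl15, Rpl10 and the retrogenes, were chosen after their values were seen. A few genes that this rule or the lists took are not reported here. The members and lists were chosen with earlier results of these data known. Python 3.11.15 with pandas 2.3.3, numpy 2.4.6, scipy 1.17.1 and matplotlib 3.10.9 did the rest.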

Additional observations from a re-analysis of the deposited data

How the results depend on the processing

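Counts of called ribosomal protein genes depended on the setting. Against 9 (4 large, 5 small), no gene of the family passed with upper-quartile scaling or library totals alone (46 and 45 at an unadjusted p under 0.05). None passed with GC and length trends removed, or with those trends and the replicate block (43 and 32). No gene of the whole table passed in these settings either. In the main fit 6320 of 17022 genes had an unadjusted p under 0.05. DESeq2 called 31 (15 large, 16 small; 24% of all genes). The fit without a filter called 26 (12 and 14; 10.1% of all genes against 5.45%). Named pseudogenes summed in left 2 of the large subunit, where 4.9% of all genes were called. Replicate numbers are shared by the groups, but same-numbered libraries deviated together with a correlation of only 0.046, so the numbers do not pair them. The replicate block called 21 (9 large, 12 small) and 1929 genes in all, against 927. Leaving out 1 library gave 0 to 77 genes of the family, 0 to 48 large and 0 to 32 small. Where this left 1 library in a group, it was assumed to vary like the other group.

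The median log2 fold change stayed above 0 in every setting run for the family and for each subunit, except that the 46 standard large subunit genes had -0.021 with trends removed. For the family it was 0.25, and 0.39 with library totals, which also moved the median of all genes from -0.02 to 0.13. It was 0.42 with named pseudogenes and 0.45 with copies summed in, 0.62 for genes with few shared windows, and 0.16 to 0.42 with 1 library left out. For the large subunit it was 0.10, and 0.30 with named pseudogenes, 0.41 with copies, and 0.091 to 0.28 with 1 library left out. The share of counts (difference 1.37 points) ran from 1.333 to 1.404 and the subunit ratio (difference -0.12) from -0.14 to -0.11 with 1 library left out. The windows were planned against the genome, which was not used here, and run against annotated transcripts, and the copies by sequence were added, both chosen after seeing the data.

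None of the 9 called genes changed direction in the 14 refits. Of all 86 genes 17 did with trends removed (the highest main value being Rpl28, from 0.89 to -0.33), 14 with copies summed in, 12 with library totals and 14 without WT2. Among the uncalled genes taken by the naming rule, with trends removed and then with the block as well, Rpl22l1 became 0.033 and 0.088, Rpl29 -0.19 and -0.19, Rps27l 0.11 and 0.11, Rps29 -0.17 and -0.13, and Rps4x 0.16 and 0.16. Rps4x, at -0.02, was also above 0 with the block (9.8e-05), upper quartile (0.027), library totals (0.14) and without KO1 (0.022) or WT2 (0.22). With 1 library left out, Rpl22l1 ran from -1.03 (without WT1) to 0.14 (without WT2), Rpl36al from -0.091 (without WT2) to 0.26, Rps29 from -0.21 (without WT1) to 0.43, and Rpl12 was 0.11 without WT2. Rpl12 became 0.10 with library totals and 0.39 with copies summed in, and Rpl24 0.18 with copies. The cause of these changes was not tested. A library with no count allows up to 3 counts, which bears on none of the 86 genes.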
